A study of Mus musculus with 12 samples.

Results

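The unfolded protein response and the chaperones were followed here through 39 genes in mast cells grown from mouse bone marrow, of 18193 genes that the annotation names on the arrays. Members were taken by gene symbol: 6 sensors and transcription factors of the response, 12 chaperones and disulfide isomerases of the endoplasmic reticulum (ER), 4 genes of ER-associated degradation, 8 genes of amino acid stress, 6 cytosolic heat shock proteins and 3 mitochondrial chaperones. The mature mast cells were 3 cultures taken after 57 to 110 days in RPMI medium with interleukin-3 (IL-3), named M2 and M4 (male) and M6 (female). The mast cell precursors were 3 cultures taken after 14 to 16 days in the same medium and factor, named M1 (female), M3 and M5 (male). The cells came from bone marrow of the femur and fibula, and the labels give no strain, transgene or further treatment for either stage. They put purity at about 80% in every culture and list stromal cells, monocytes and macrophages as possible company. RNA of each culture was hybridised to 1 array of each of 2 Affymetrix designs, MOE430A (called chip A) and MOE430B (called chip B), whose probe sets each report 1 transcript or a few related ones. The labels do not say whether the cultures came from separate animals, so p-values measure only the spread between these cultures.

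The ER folds secreted and membrane proteins, a heavy load in a cell that packs granules with proteases. When unfolded proteins collect there, Ern1 (IRE1), Eif2ak3 (PERK) and Atf6 sense them. Ern1 splices the Xbp1 message, Atf6 is cut to release a transcription factor, and together these raise chaperones and degradation factors. Eif2ak3 slows translation and raises the Atf4 protein, which drives amino acid synthesis and uptake and, through Ddit3 (CHOP), cell death. Amino acid shortage reaches Atf4 by another kinase, and heat shock proteins of the cytosol and mitochondria answer to separate factors. Splicing, cleavage and phosphorylation are not read by these arrays, which measure the amount of message.

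The annotation gave 100 probe sets to 38 of the 39 members, 85 on chip A and 15 on chip B. No set carried the symbol of Hsp90ab1, a cytosolic chaperone. On a log2 scale with a floor, 81 of the 100 sets were bright enough to be tested and stood for 37 members, while both sets of the cystine transporter Slc7a11 were too dim. Signals have an arbitrary unit in which each array was scaled to a mean of about 1500. Those of the members were compared within a set over cultures, not between sets. The marker sums below add signals of different sets, and of both chips for plasma cells, so bright sets weigh most in them. Where 1 set stands for a gene below, it is the brightest, from chip A where chip A has one.

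The arrays differed in ways that moved with stage or with single cultures. The signal ratio of the 3′ to the 5′ set of Actb, a measure of RNA integrity and labelling, was 9.73 to 10.1 in the mature cultures, against 4.81 to 7.04 in the precursor cultures on chip A, with no overlap. The brightest sets of 18 monocyte and macrophage markers summed to 11458 to 21376 in mature cultures and to 138489 to 197057 in precursor cultures, and 8 of 14 tested genes fell (limma, adjusted p under 0.05). For 13 neutrophil markers the sums were 5460 to 11636 in mature and 75659 to 328738 in precursor cultures (2 of 8 tested fell, Chil3 and Anxa1). For 11 stromal markers they were 6954 to 11432 and 17616 to 26115 (1 of 5 fell, Igfbp4). Most of the precursor stromal sums was Igfbp4, with 11496 to 18827, against 2735 to 6055 in mature cultures. Fn1 and Vcam1 also had lower means in mature cultures, while Lepr and Col1a2 had higher ones, none of them past the test. In M3 the neutrophil sum was mostly Chil3 (56623) and Anxa1 (15308), while Ngp read 601, Mpo 614 and S100a8 16.4 there, against 29861, 18908 and 31725 in M1, so these 3 granulocyte genes were not high in every precursor culture. Col1a1, Col3a1 and the macrophage genes C1qa and C1qc were too dim to be tested. Of 7 markers of plasma cells, whose ER is large, the sums were 4872 to 5732 in mature and 4531 to 4919 in precursor cultures. Their largest part was Mzb1, read on chip B, with 2444 to 3263 in mature and 2472 to 3035 in precursor cultures. Jchain, Cd79a, Cd79b, Irf4 and Sdc1 were too dim to be tested. Mast cell markers such as Kit and Fcer1a were bright in all 6 cultures, and 1 of 10, Hdc, fell. Xist, the transcript of the inactive X chromosome, read 43301 in M6 and 37969 in M1, against 687 to 926 in the 4 male cultures. The Y-linked gene Eif2s3y read 1105 in M6 and 17.7 in M1, against 1175 to 3134 in the male cultures, so M6 alone held bright signal of both genes, and values without M6 are given beside the results that rest on it. In bulk samples, fewer cells of a type and less RNA per cell cannot be told apart.

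The first question was whether the response differed between mature and precursor mast cells. No member passed the test in either direction: 0 of 69 tested member sets on chip A, where 0.527% of all tested sets passed, and 0 of 12 on chip B, where 0.0926% passed (limma, adjusted p under 0.05). At an unadjusted p under 0.05, 1 member set passed on chip A (Pdia4, 1.45% of member sets, against 6.59% of all tested sets) and 1 on chip B (Ddit3, against 6.42% of all). The mature and precursor cultures did not overlap in 3 of 69 member sets on chip A, against 12.2% of all tested sets, and in 1 of 12 on chip B, against 12.0%. Over the brightest sets, 20 of 37 genes were higher and 17 lower in the mature cultures, with differences between -1.56 and 0.68 in log2 signal. The 95% interval lay within 1 log2 unit of 0 for 18 of the 37 genes and reached past it for 19, so the cultures bound the change for the first group only.

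**Figure D1:**
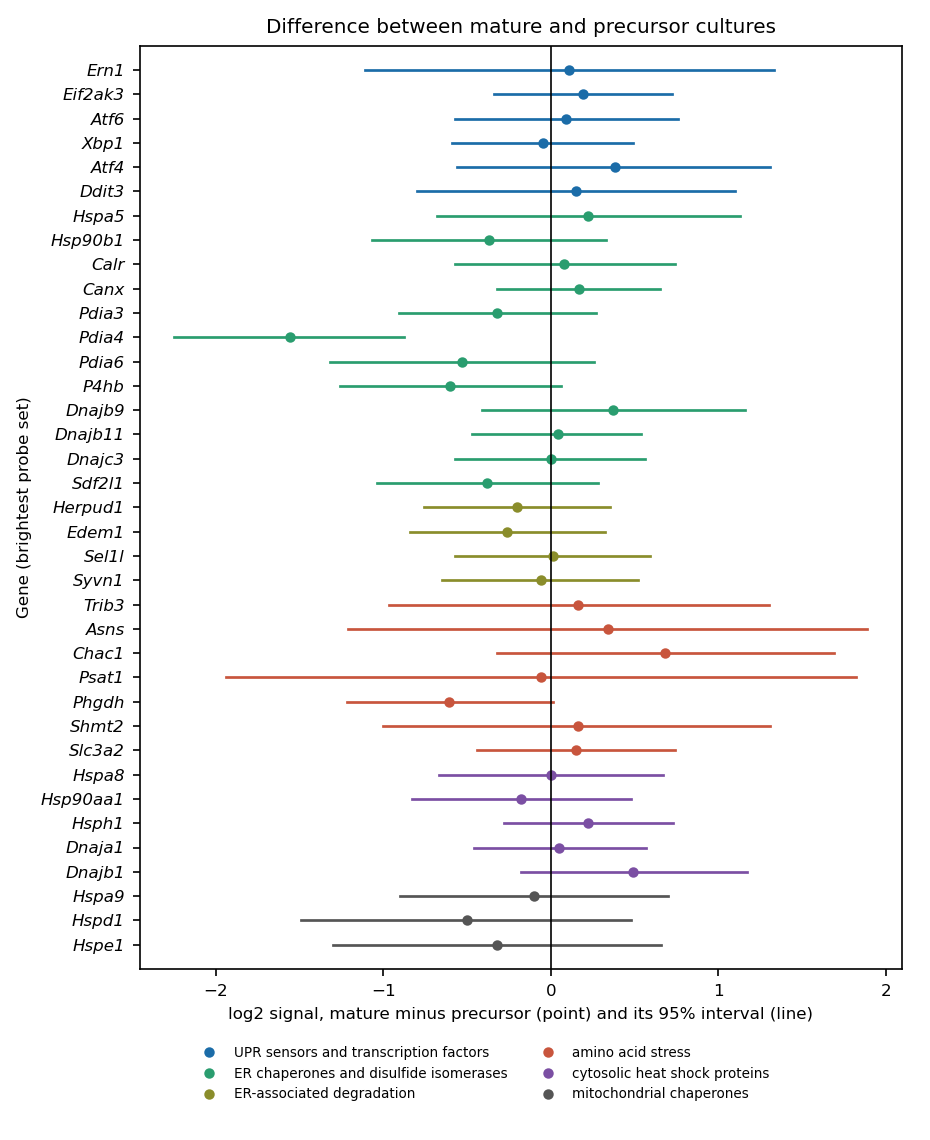
Log2 signal of mature minus precursor cultures (x axis) for the brightest probe set of each of 37 tested genes (y axis), points with 95% intervals as lines, coloured by class. Most intervals cross 0, the interval of Pdia4 lies wholly below it, from -2.25 to -0.88, and those of Asns and Psat1 are the widest.

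By class, the median log2 difference of mature minus precursor cultures was 0.13 for the sensors and transcription factors, -0.16 for the ER chaperones, -0.13 for ER-associated degradation, 0.16 for amino acid stress, 0.05 for the cytosolic heat shock proteins and -0.32 for the mitochondrial chaperones. Without M6 the medians of the last 3 classes were 0.74, 0.11 and -0.06, and that of the ER chaperones was -0.03. All tested sets had a median of 0.018 on chip A and 0.004 on chip B. The spread within a stage differed more: the median within-stage SD of log2 signal was 0.90 for amino acid stress genes and 0.78 for mitochondrial chaperones, but 0.25 for ER-associated degradation, against 0.37 over all tested sets of chip A. The mean amino acid stress level, relative to each set's mean over 6 cultures, was 0.77 in M2, 0.21 in M4 and -0.80 in M6, against -0.56 in M1, 0.46 in M3 and -0.08 in M5. M6 and M1, the female cultures, were thus the lowest of their stages, and M2 was the highest of all 6. The mean level of the mitochondrial chaperones was 0.40, -0.15 and -0.70 in M2, M4 and M6, against -0.59, 0.14 and 0.90 in M1, M3 and M5.

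**Figure D2:**
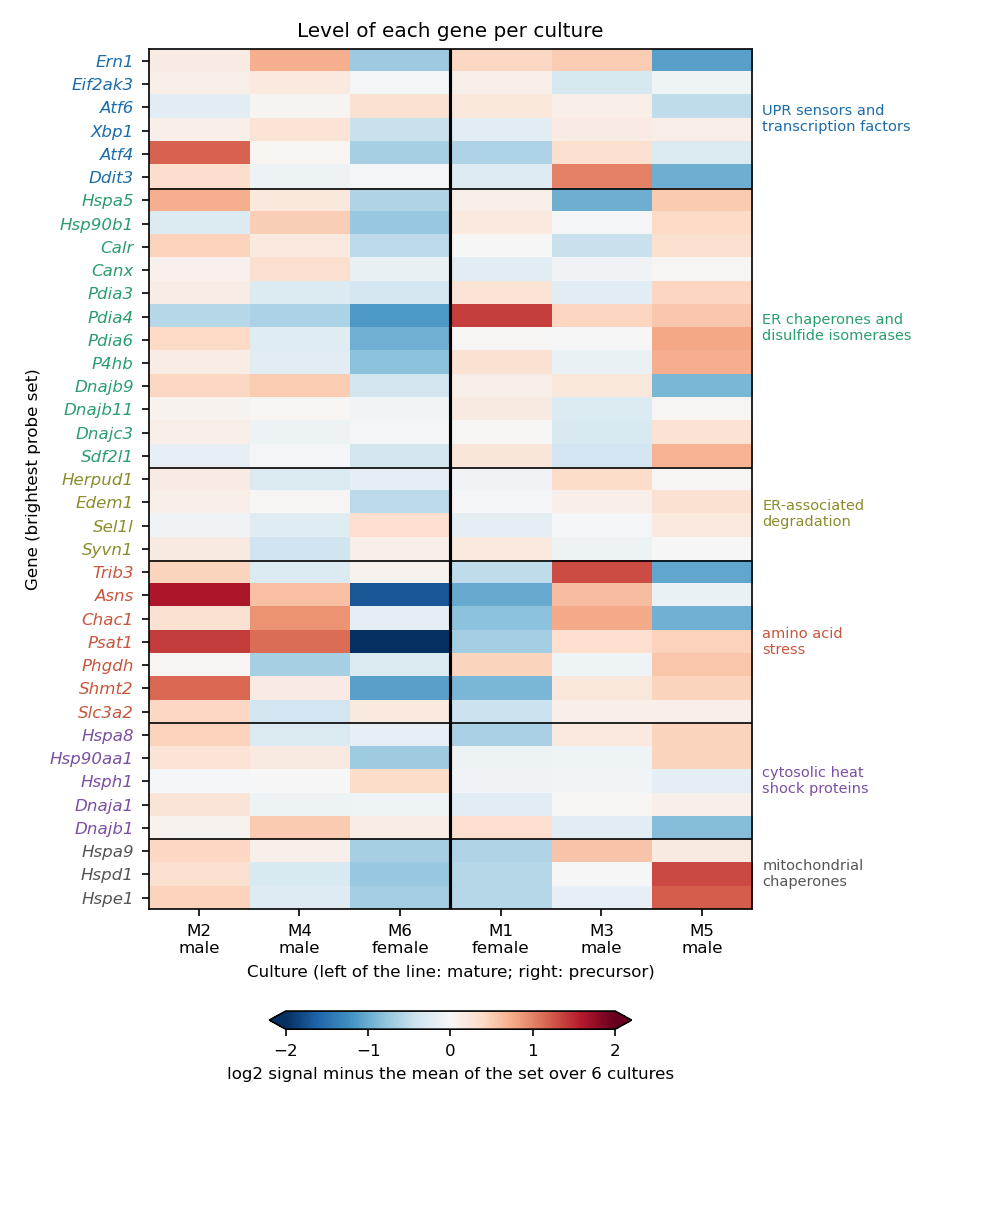
Log2 signal minus the mean of the set over 6 cultures (colour) for the brightest set of each of 37 tested genes (rows, by class) in each culture (columns; mature M2, M4 and M6 left of the line, precursor M1, M3 and M5 right). Amino acid stress genes and mitochondrial chaperones vary most between cultures, with M6 and M1 pale to dark blue in Asns, Psat1, Shmt2 and Hspd1, while ER-associated degradation stays near white.

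Of the sensors, Eif2ak3, the kinase that slows translation under ER stress, differed by 0.19 ± 0.24 (SE) and Atf6 by 0.09 ± 0.30 between stages. Ern1, the nuclease that splices Xbp1, had 3 tested sets with differences between -0.08 and 0.14. The stages overlapped in every tested set of these sensors. Xbp1, whose spliced form drives ER expansion in secretory cells, read 33924, 38085 and 23114 in M2, M4 and M6, against 27231, 35299 and 34580 in M1, M3 and M5. Its difference was -0.05 ± 0.24 (SE), with a 95% interval from -0.59 to 0.49 (0.16 without M6), and M6 and M1 were the lowest cultures. The 4 tested Xbp1 sets ranged from -0.41 to 0.08.

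Atf4, the transcription factor of the integrated stress response, read 20573, 9361 and 5732 in M2, M4 and M6, against 5936, 11374 and 7430 in M1, M3 and M5. M2 stood highest, the stages overlapped, and the difference was 0.38 ± 0.42 (SE), or 0.80 without M6. Another set, 1438992_x_at, gave 10095, 11103 and 2439, against 2778, 7319 and 4688 in the same order of cultures. In both sets, M6 and M1 were below all 4 male cultures.

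Ddit3, a death-promoting factor made downstream of Atf4, gave 2 different pictures. Its chip B set 1443897_at read 4435, 3334 and 1561 in M2, M4 and M6, against 1245, 339 and 1272 in M1, M3 and M5, where M3 lay under the floor of 359. The mature cultures were each above every precursor culture, with a log2 difference of 1.78 ± 0.55 (SE), 3.44-fold, at an unadjusted p of 0.00797 and an adjusted p of 0.515 (limma). Its chip A set 1417516_at read 1837, 1353 and 1427 in the mature cultures, against 1215, 2904 and 734 in the precursor cultures. There M3 was the highest of all 6 cultures, the stages overlapped, and the difference was 0.15 ± 0.43 (SE). M3 was therefore the lowest culture by the chip B set and the highest by the chip A set, and without M3 the chip B difference was 1.18.

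**Figure D3:**
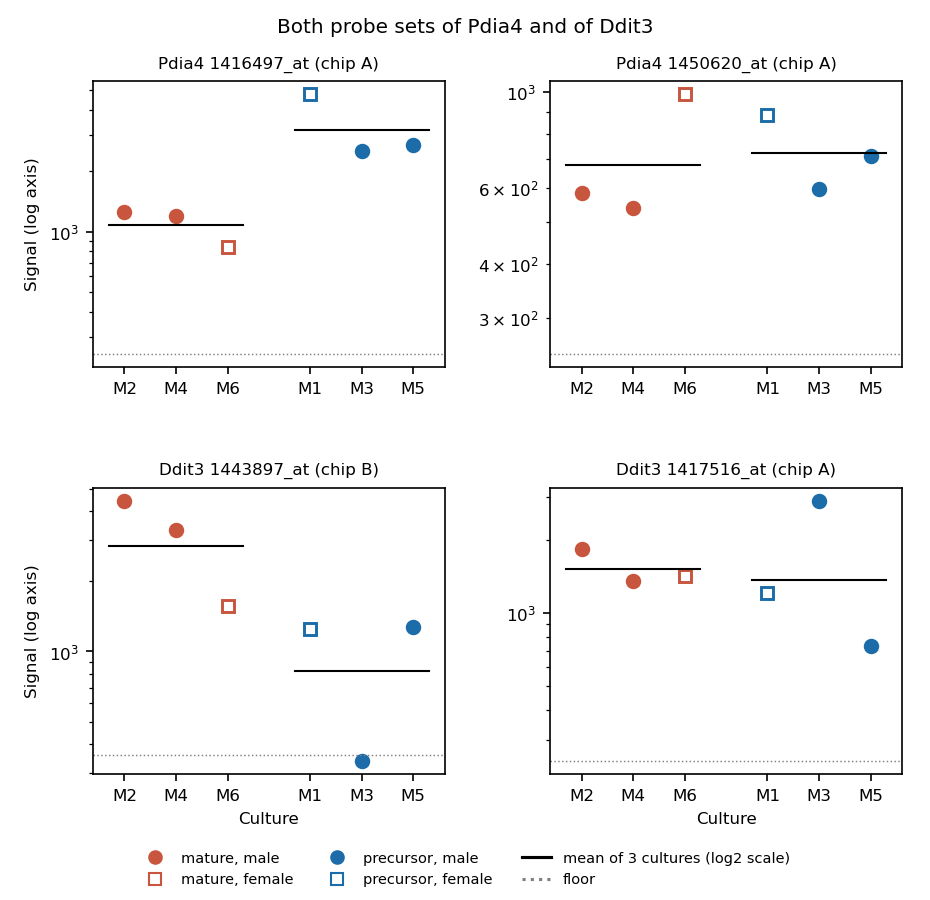
Signal (log axis) of the 2 tested sets of Pdia4 and of Ddit3 in mature (red) and precursor (blue) cultures, circles for male and open squares for female cultures, with the mean of 3 cultures as a line and the floor dotted. The stages separate in Pdia4 1416497_at and Ddit3 1443897_at and overlap in the other set of each gene.

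Among the ER chaperones and disulfide isomerases, 5 of 12 genes were higher and 7 lower in mature cultures, none of them past the test. Pdia4, a disulfide isomerase that also binds other ER chaperones, stood apart in size. Its set 1416497_at read 1247, 1190 and 838 in M2, M4 and M6, against 4793, 2499 and 2673 in M1, M3 and M5. Every mature culture lay below every precursor culture, with a mean log2 signal of 10.07 ± 0.31 in mature and 11.63 ± 0.52 in precursor cultures (SD, n = 3 each). The difference was -1.56 ± 0.31 (SE), 2.95-fold lower, at an unadjusted p of 0.000414 and an adjusted p of 0.0665 (limma). With the fluidics station as a block the adjusted p was 0.0477, and over all alternatives it ran from 0.0477 to 0.517; without M6 the difference was -1.38 (adjusted p 0.173) and without M1 -1.27 (adjusted p 0.172). The dimmer Pdia4 set 1450620_at read 583, 539 and 988 in mature cultures, against 884, 596 and 712 in precursor cultures, a difference of -0.09 ± 0.36 (SE). The macrophage and stromal marker sums given above were also lower and the 3′ to 5′ ratio of Actb higher in every mature culture. The stromal difference was mostly that of Igfbp4. The part of these sums and of this ratio in the Pdia4 difference was not tested.

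Hspa5 (BiP), the main ER chaperone and the partner that holds the sensors inactive, read 44591, 31129 and 17807 in M2, M4 and M6, against 29349, 13634 and 38816 in M1, M3 and M5. Its lowest cultures, M3 and M6, belong to different stages, and the difference was 0.22 ± 0.41 (SE), or 0.58 without M6. A chip B set of Hspa5 gave the same 2 lowest cultures, with 29823 in M6 and 25961 in M3. This chip B set differed by 0.05 ± 0.25 between stages, and the dimmer chip A set 1427464_s_at by -0.38 ± 0.62 (SE). Hsp90b1 (GRP94), the ER member of the HSP90 family, read 5519, 9438 and 3946 in the mature cultures, against 7662, 6524 and 8825 in the precursor cultures, a difference of -0.37 ± 0.32 (SE), or -0.08 without M6. P4hb, the founding disulfide isomerase, differed by -0.60 ± 0.30 (unadjusted p 0.0701), Pdia6 by -0.53 ± 0.36 and Pdia3, which works with the lectin chaperones on glycoproteins, by -0.32 ± 0.27 (SE). The lectin chaperones themselves were closer to 0: Calr differed by 0.08 ± 0.30 and Canx by 0.17 ± 0.22 (SE) on chip A. The co-chaperones and partners of Hspa5 were at 0.37 ± 0.35 for Dnajb9, 0.04 ± 0.23 for Dnajb11 and -0.38 ± 0.30 (SE) for Sdf2l1, and Dnajc3 had 3 tested sets between -0.13 and 0.01.

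The ER stress element, through which Atf6 and Xbp1 act on chaperone promoters, is printed to show which members share it. Members were chosen as genes of this response, so its share among them is a description and not an independent result. It was searched as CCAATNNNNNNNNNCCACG on both strands of RefSeq promoters (GRCm38.p6, 250 bases before to 50 bases after each start), which were matched for 34 of the 39 members. It was present in 7 of these 34 genes (20.6%), against 37 of 27025 genes in the table (0.137%). The UPR element TGACGTGG was in 0 of 34 members, against 0.714% of all genes. The matches are printed with 12 bases on either side and the element in capitals, 5′ to 3′ on the strand of the gene, to show how alike they are; in Calr and in the downstream copy of Hsp90b1 the element runs the other way. The positions are the Hspa5 window at chr2:34772013-34772055 (plus strand), the Calr window at chr8:84847063-84847105 (minus strand), the Hsp90b1 window of the upstream copy at chr10:86705626-86705668 (minus strand), the Hsp90b1 window of the downstream copy at chr10:86705521-86705563 (minus strand), the Canx window at chr11:50325788-50325830 (minus strand), the Pdia6 window at chr12:17266479-17266521 (plus strand), the Dnajc3 window at chr14:118937815-118937857 (plus strand) and the Syvn1 window at chr19:6046520-6046562 (plus strand).
Hspa5: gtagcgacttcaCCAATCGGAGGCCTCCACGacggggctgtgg
Calr: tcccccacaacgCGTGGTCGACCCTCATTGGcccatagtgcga
Hsp90b1 upstream copy: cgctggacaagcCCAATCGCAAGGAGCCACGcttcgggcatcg
Hsp90b1 downstream copy: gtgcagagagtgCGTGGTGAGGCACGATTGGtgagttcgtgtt
Canx: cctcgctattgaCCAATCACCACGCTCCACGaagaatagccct
Pdia6: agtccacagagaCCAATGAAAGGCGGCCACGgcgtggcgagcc
Dnajc3: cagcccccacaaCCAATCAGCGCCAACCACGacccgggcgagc
Syvn1: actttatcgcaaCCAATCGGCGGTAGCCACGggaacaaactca
The genes with the element had stage differences of either sign by their brightest sets. Hspa5, Calr and Canx were positive, Hsp90b1, Pdia6 and Syvn1 negative and Dnajc3 near 0, none past the test. Hspa5, Calr and Canx each had tested sets on both sides of 0, with -0.38 for Hspa5 1427464_s_at, -0.02 for Calr 1456170_x_at and -0.23 for Canx on chip B. All tested sets of Hsp90b1, Pdia6 and Syvn1 were negative.

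The Pdia4 promoter (chr6:47813463-47813762, minus strand, GRCm38.p6) is printed because this gene had the largest difference of the brightest sets. It held CCAAT on either strand 3 times and CCACG 1 time (capitals), but not the full ER stress element at the spacing searched. CCAAT was in 41.1% and CCACG in 35.5% of all genes, and each in 79.4% of the 34 members.
Pdia4: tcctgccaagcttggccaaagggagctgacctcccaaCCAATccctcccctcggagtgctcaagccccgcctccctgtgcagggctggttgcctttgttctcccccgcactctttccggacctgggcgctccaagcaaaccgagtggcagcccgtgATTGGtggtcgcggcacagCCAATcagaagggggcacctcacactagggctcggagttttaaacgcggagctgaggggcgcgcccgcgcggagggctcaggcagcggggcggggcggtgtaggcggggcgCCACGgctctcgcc

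ER-associated degradation, which draws misfolded proteins out of the ER for destruction, had the lowest median within-stage SD of the 6 classes over the brightest sets (0.25), although the mean level of the cytosolic heat shock proteins varied less between cultures (pooled SD 0.11, against 0.13). Herpud1, a stress-induced scaffold of the degradation complex, differed by -0.20 ± 0.25, Edem1, which picks glycoproteins for disposal, by -0.26 ± 0.26, Sel1l, the adaptor of the ligase, by 0.01 ± 0.26, and Syvn1, the ligase itself, by -0.06 ± 0.27 (SE). The dimmer Edem1 set, 1424065_at, ranged from 742 in M6 to 3197 in M1 and had a within-stage SD of 0.86, above that of 95.5% of tested chip A sets. A dim Sel1l set, 1425188_s_at, read 279, 331 and 701 in M2, M4 and M6, against 871, 823 and 472 in M1, M3 and M5. It overlapped between stages and differed by -0.80 ± 0.48 (SE), while the bright chip B set of Sel1l differed by 0.02 ± 0.20. Another Sel1l set, 1430692_a_at, was too dim to be tested, with 102, 194 and 21.8 in mature cultures, against 303, 324 and 281 in precursor cultures. Mature cultures were all lower there, but near or under the floor of 247.

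The amino acid stress genes, most of them targets of Atf4, showed the widest swings between cultures, and the swings did not follow stage. Asns, asparagine synthetase, read 7509, 3719 and 747 in M2, M4 and M6, against 1220, 3752 and 2240 in M1, M3 and M5. The highest and the lowest culture were both mature, the stage difference was 0.34 ± 0.70 (SE) with M6 and 1.28 without it, and the within-stage SD of 1.34 exceeded that of 99.7% of tested chip A sets. Psat1, an enzyme of serine synthesis, read 8519, 7009 and 527 in mature cultures, against 1984, 4075 and 4415 in precursor cultures, again with M6 lowest and M1 next, a difference of -0.06 ± 0.85 (SE) with M6 and 1.23 without it. Its other set, 1451064_a_at, read 3282, 2127 and 78.5 in mature cultures, against 1618, 1775 and 2866 in precursor cultures. The difference of this set was -0.75 ± 0.76 (SE), but 0.39 without M6 and -1.48 without M2. Shmt2, which splits serine to load folate in mitochondria, read 6573, 3320 and 1387 in mature cultures, against 1566, 3469 and 4013 in precursor cultures, a difference of 0.16 ± 0.52 (SE) with M6 and 0.74 without it. None of these values without M6 passed the test. Across Asns, Psat1 and this Shmt2 set, M6 and M1 lay below all 4 male cultures. Of the dimmer tested Shmt2 sets, 1426423_at was also lowest in M6 (224, under the floor) and M1 (310). By contrast, 1455985_x_at was highest in M6 (1183).

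Phgdh, which opens the serine pathway, had 4 tested sets that disagreed about M6. Its brightest set read 3301, 2037 and 2629 in M2, M4 and M6, against 4378, 3019 and 4713 in M1, M3 and M5, a difference of -0.61 ± 0.28 (SE, unadjusted p 0.054). Set 1454714_x_at read 4780, 2560 and 40.8 in mature cultures, against 1313, 3044 and 4921 in precursor cultures. Set 1456584_x_at read 2992, 1701 and 750 in mature cultures, against 2586, 2592 and 2969 in precursor cultures, and set 1437621_x_at read 2622, 1335 and 99.3, against 1578, 1107 and 2468. M6 was lowest in these 3 sets but not in the brightest. Their stage differences were -0.90 ± 0.89, -0.79 ± 0.42 and -0.77 ± 0.69 (SE). Without M6 they were 0.37, -0.26 and 0.20, so the sign turned in 1454714_x_at and 1437621_x_at, while the brightest set stayed at -0.61. The names of all 4 sets end in x_at, the mark of probes that can also bind other transcripts, and another 2 sets that the annotation shares between Phgdh and a predicted gene were not used.

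By their brightest sets, Chac1, Trib3 and Ddit3, also known Atf4 targets, had another order of cultures. Chac1, which breaks down glutathione, read 1438, 2182 and 1032 in M2, M4 and M6, against 664, 1969 and 598 in M1, M3 and M5, a difference of 0.68 ± 0.46 (SE). Trib3, a pseudokinase that restrains Atf4, read 1506, 916 and 1165 in mature cultures, against 779, 2721 and 538 in precursor cultures. In Chac1, Trib3 and the chip A set of Ddit3, M3 was the highest and M5 the lowest precursor culture, while Psat1 and Shmt2 had M5 highest among precursors. Slc3a2, the shared heavy chain of amino acid transporters, varied little by comparison, with 26929, 15631 and 23153 in mature cultures, against 15121, 21718 and 21844 in precursor cultures. Slc7a11, its partner in cystine uptake, read 349 to 802 over the 6 cultures on chip A and stayed under the filter.

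**Figure D4:**
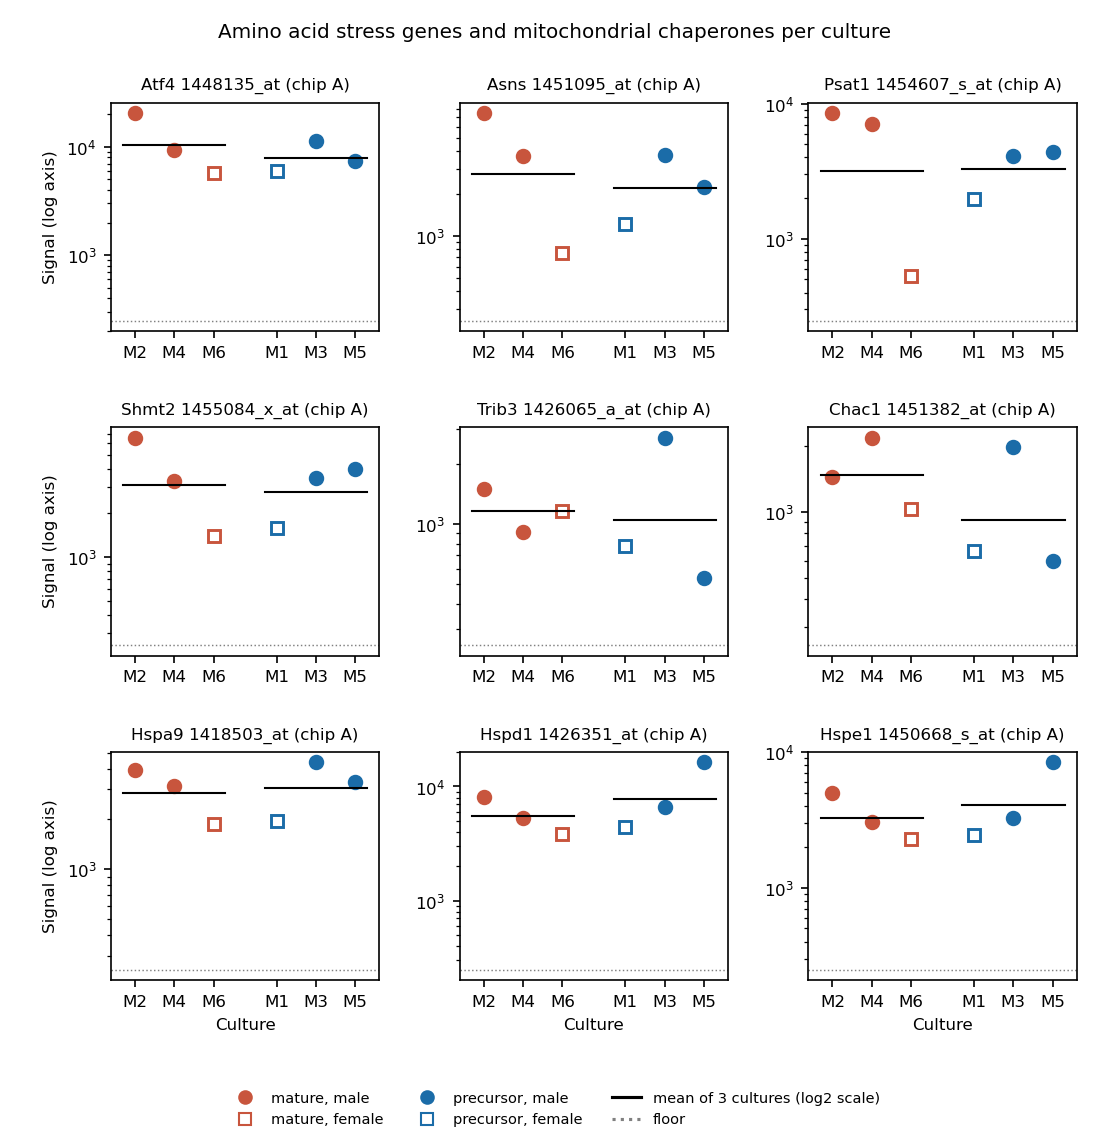
Signal (log axis) of Atf4, 5 amino acid stress genes and 3 mitochondrial chaperones in mature (red) and precursor (blue) cultures, circles for male and open squares for female cultures, with the mean of 3 cultures as a line and the floor dotted. In Asns, Psat1, Shmt2 and the mitochondrial chaperones the open squares (M6 and M1) are lowest, M3 is highest in Trib3, and M5 is highest in Hspd1 and Hspe1.

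The C/EBP-ATF element, the site at which Atf4 and C/EBP factors pair, is printed because it is shared by genes from both orders of cultures. Members were chosen as genes of these pathways, so its share among them is again a description and not an independent result. The element was searched as TGATGNAA on both strands and found in 5 of 34 members (14.7%), against 4.51% of all genes in the promoter table. It is shown in capitals with 12 bases on either side, on the strand of the gene and 5′ to 3′; it reads in the searched direction in Asns and in the upstream copy of Slc7a11 and in the other direction elsewhere. The positions in GRCm38.p6 are the Asns window at chr6:7693213-7693244 (minus strand), the Chac1 window at chr2:119351037-119351068 (plus strand), the Trib3 window at chr2:152344027-152344058 (minus strand), the Slc7a11 window of the upstream copy at chr3:50443660-50443691 (minus strand), the Slc7a11 window of the downstream copy at chr3:50443641-50443672 (minus strand) and the Herpud1 window at chr8:94386305-94386336 (plus strand).
Asns: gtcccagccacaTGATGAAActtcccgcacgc
Chac1: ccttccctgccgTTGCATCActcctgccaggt
Trib3: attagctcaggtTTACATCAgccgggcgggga
Slc7a11 upstream copy: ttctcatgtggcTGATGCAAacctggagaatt
Slc7a11 downstream copy: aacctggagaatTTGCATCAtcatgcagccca
Herpud1: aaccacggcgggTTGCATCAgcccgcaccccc
By their brightest sets, Asns and Trib3, which share the element, had different lowest cultures, M6 for Asns and M5 for Trib3. In the other tested Trib3 set, M6 (158) and M5 (166) were both under the floor, so that set does not show this contrast. Psat1, Phgdh and Shmt2 had no match in the window searched.

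Of the cytosolic heat shock proteins, 4 of 5 genes were higher and 1 lower in mature cultures by their brightest sets. The log2 differences lay between -0.18 and 0.49, and the 4 include Hspa8 at 0.00. Hspa8, the constitutive HSP70, read 103983, 61725 and 67976 in M2, M4 and M6, against 48384, 87170 and 103228 in M1, M3 and M5, and its difference was 0.00 ± 0.31 (SE). The other tested sets of Hspa8, 1420623_x_at and 1420622_a_at, were lower in mature cultures, at -0.57 ± 0.38 and -0.29 ± 0.34 (SE). Hsp90aa1, the inducible cytosolic HSP90, read 19853, 18677 and 10083 in mature cultures, against 15361, 15623 and 22466 in precursor cultures, a difference of -0.18 ± 0.30 (SE), or 0.14 without M6. M6 and M1 were the lowest cultures of Hsp90aa1 in all 3 tested chip A sets, while the dim chip B set was highest in M6. Hsph1, a nucleotide exchange factor for HSP70, varied little between cultures in its tested set. This set read 5894, 6049 and 7779 in mature cultures, against 5745, 5801 and 5253 in precursor cultures. The stages did not overlap, but the difference of 0.22 ± 0.23 (SE) was within its error. Dnajb1, an inducible co-chaperone of HSP70, had a dim set, 1416756_at, with 839, 876 and 958 in mature cultures, against 812, 407 and 704 in precursor cultures. This set did not overlap either and differed by 0.53 ± 0.35, close to the bright set of the gene at 0.49 ± 0.31 (SE), which did overlap. Dnaja1, a constitutive co-chaperone, differed by 0.05 ± 0.23 (SE).

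By their brightest sets, the mitochondrial chaperones were lowest in M6 and M1 and highest in M5 or M3. Hspd1 (HSP60) read 8135, 5288 and 3847 in M2, M4 and M6, against 4387, 6599 and 16317 in M1, M3 and M5. Hspe1 (HSP10), the lid of the HSP60 barrel, read 4979, 3021 and 2263 in mature cultures, against 2429, 3244 and 8393 in precursor cultures. The 2 genes ranked the 6 cultures in the same order, with M5 far above the others. Hspa9 (mortalin), which pulls proteins into mitochondria, read 3914, 3162 and 1858 in mature cultures, against 1935, 4375 and 3333 in precursor cultures, so M3 was its highest culture. The stage differences were -0.50 ± 0.45 for Hspd1, -0.32 ± 0.45 for Hspe1 and -0.10 ± 0.36 (SE) for Hspa9, and without M6 they were -0.25, -0.06 and 0.21. A dim Hspe1 set differed by 0.00 ± 0.33 (SE).

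Hspd1 and Hspe1 lie head to head on chromosome 1 and overlap by 96 bases in RefSeq (Hspd1 at chr1:55077833-55088243, Hspe1 at chr1:55088148-55091317, GRCm38.p6). Their shared promoter is printed on the Hspe1 strand (chr1:55087898-55088197, plus strand) because these genes varied together across cultures. Capitals mark the heat shock element, searched on both strands as GAANNTTCNNGAA or TTCNNGAANNTTC, with 2 overlapping matches here. As the members were chosen as chaperone and stress genes, its share among them is a description and not an independent result. The element was in 3 of 34 members (8.82%; Hspd1, Hspe1 and Hsph1), against 0.662% of all genes. Hspd1 and Hspe1 were counted apart here, although their matches are the same bases.
Hspe1: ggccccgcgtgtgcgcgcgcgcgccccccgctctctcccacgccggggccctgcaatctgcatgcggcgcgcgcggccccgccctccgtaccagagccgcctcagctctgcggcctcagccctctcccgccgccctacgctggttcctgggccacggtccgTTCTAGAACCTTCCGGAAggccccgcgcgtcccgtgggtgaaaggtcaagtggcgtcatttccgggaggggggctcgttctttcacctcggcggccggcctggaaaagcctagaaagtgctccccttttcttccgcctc
In its tested set Hsph1, which also held the element, did not share the high signal in M5, the lowest culture there. Its other set, 1423566_a_at, was too dim to be tested and does not show this contrast. It was highest in M5 (573) and lowest in M6 (49.6, under the floor).

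The order of cultures just described was chosen for description after the values were seen, and sex in the labels is the only sample annotation that M6 and M1 share apart from the other 4 cultures. On chip A, both female cultures lay below all male cultures in 22 of 69 member sets (31.9%), against 8.71% of all tested sets. They lay above all male cultures in 2 of 69, against 11% of all tested sets. On chip B they lay below all male cultures in 2 of 12 member sets, against 7.14% of all. By class, on chip A, they lay below them in 7 of 15 sets of amino acid stress, 4 of 5 of mitochondrial chaperones, 4 of 10 of sensors and transcription factors, and 4 of 11 of cytosolic heat shock proteins, but in 2 of 21 of ER chaperones and 1 of 7 of ER-associated degradation. Genes with several sets count more than 1 time here. The 7 amino acid stress sets belonged to Asns, Psat1, Phgdh and Shmt2. The share of member sets was 29.0% after quantile normalization of the arrays and 34.8% after scaling to the 75th percentile, both chosen after seeing the data. Without M6, 26 of 69 member sets had M1 below all male cultures, against 18.8% of all tested sets, and without M1, 35 of 69 had M6 below them, against 24.5%.

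**Figure D5:**
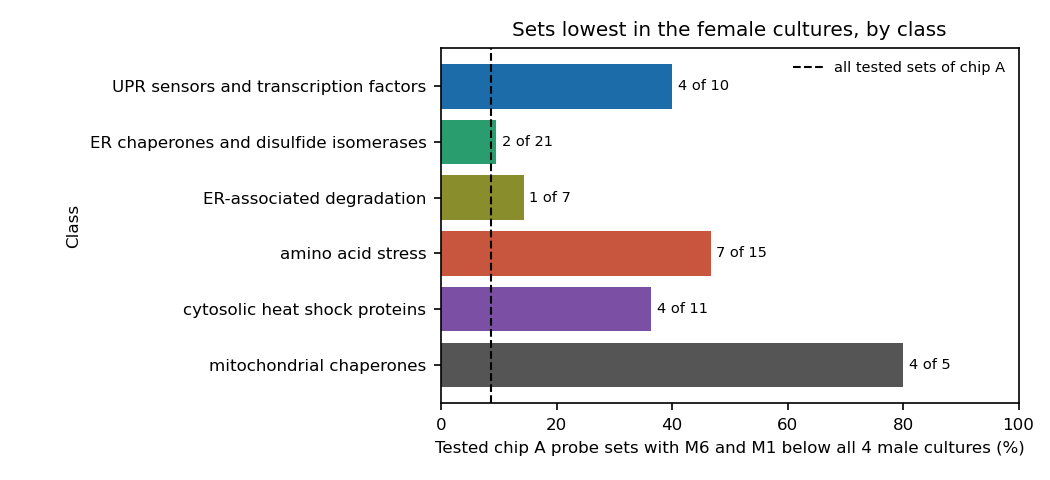
Share of tested chip A probe sets (x axis, percent) in which M6 and M1 both lay below all 4 male cultures, by class (bars, with counts), and the share over all tested chip A sets as a dashed line at 8.71%. Amino acid stress and mitochondrial chaperones have the longest bars, and ER chaperones lie near the line.

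With stage as a covariate, no member set passed a test of female against male cultures (limma, adjusted p under 0.05, 0 of 69 on chip A, where 0.00864% of all tested sets passed). At an unadjusted p under 0.05, 25 of 69 passed, all lower in the female cultures, against 10.2% of all tested sets in either direction. The largest difference was in the dimmer Asns set, 1433966_x_at, which read 36.0 in M6 and 287 in M1, against 871 to 3476 in the male cultures. Its female minus male difference was -2.85 ± 0.43 (SE) at an adjusted p of 0.185, the lowest of any member set (limma). M6 was under the floor in this Asns set, so the size and SE of its difference depend on the floor. With no floor, the lowest adjusted p of a member set on chip A was 0.299 (limma). The name of this Asns set ends in x_at, the mark of probes that can also bind other transcripts. The brightest Asns set differed by -2.04 ± 0.42, Psat1 by -2.49 ± 0.50, Shmt2 by -1.50 ± 0.31 and Hspa9 by -0.95 ± 0.25 (SE, female minus male). Without M6, so that M1 alone stood for the female cultures, these differences were -1.25, -1.10, -1.25 and -0.98, and the lowest adjusted p of a member set on chip A was 0.737. Without M1, so that M6 alone stood for them, 1 of 69 member sets passed, against 0.0518% of all tested sets (limma): Psat1 1454607_s_at, at -3.87 with an adjusted p of 0.02. The Asns, Shmt2 and Hspa9 sets were then at -2.82, -1.75 and -0.92, none past the test. Other values moved with these cultures: M6 had the lowest summed signal of cell division genes, 9303 against 17017 to 37708 in the other cultures, and a 3′ to middle ratio of Actb of 7.99, and the chip A median signal was highest in M6 (695) and M1 (592). M1 did not share the first 2 of these, with 26027 and 3.73. Their part in the pattern was not tested, and with 2 female cultures, sex cannot be told apart from other properties of M6 and M1.

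The stage difference within each sex was also compared, although a female difference rests on M6 against M1 alone. An interaction of stage and sex had an unadjusted p under 0.05 in 9 of 69 member sets on chip A, against 7.56% of all tested sets, and in 0 of 12 on chip B, against 5.72% (limma; none had an adjusted p under 0.05, and the lowest was 0.451). It cannot be fitted without M6, the only female mature culture. For Psat1 the log2 difference was -1.91 between the female cultures and 0.87 between the male ones. For Pdia4 it was -2.52 between the female and -1.09 between the male cultures, so mature cultures were lower in both sexes.

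Other genes of the same pathways, 171 in 6 lists, gave no call either: 0 of 143 tested genes rose and 0 fell, and 14 of their 283 tested sets (4.95%) had an unadjusted p under 0.05, against 6.59% (chip A) and 6.42% (chip B) of all tested sets. Among other amino acid stress genes, Ddit4, an inhibitor of mTORC1 that stress and glucocorticoids raise, read 10434, 18211 and 17523 in M2, M4 and M6, against 8429, 6332 and 3579 in M1, M3 and M5. All mature cultures were higher, with a difference of 1.37 ± 0.34 (SE, adjusted p 0.167, limma). Cebpb, a transcription factor that can pair with Atf4, differed by -0.91 ± 0.35 (SE). Among other cytosolic chaperones, Dnaja4, a co-chaperone of HSP70, read 5658, 4676 and 4140 in mature cultures, against 2683, 2139 and 1832 in precursor cultures, a difference of 1.13 ± 0.25 (SE, adjusted p 0.115, limma), and the small heat shock protein Hspb6 differed by 0.85 ± 0.33 (SE). Among other ER folding factors, Erp29, an ER-resident relative of the disulfide isomerases, read 2767, 2975 and 1848 in mature cultures, against 3866, 4840 and 5569 in precursor cultures, a difference of -0.93 ± 0.27 (SE, adjusted p 0.316, limma). Sec61a1, the channel through which proteins enter the ER, was at 0.58 ± 0.22 (SE) by its brightest set, while another set, 1448242_at, was at -0.64 ± 0.27 (SE), and its 5 tested sets lay on both sides of 0. The 2 genes of lowest unadjusted p in the remaining lists were Creb3l1 (0.72 ± 0.33) and Tmbim6 (-0.41 ± 0.24) for signalling, Edem2 (-0.56 ± 0.32) and Rnf139 (-0.43 ± 0.27) for degradation, and Trap1 (0.58 ± 0.24) and Yme1l1 (0.41 ± 0.30, SE) for mitochondria.

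Some of the other amino acid stress genes also had their lowest signal in M6 and M1. These cultures lay below all male cultures in 11 of 27 tested chip A genes (40.7%, against 8.71% of all tested sets): Aars1, Eprs1, Gars1, Iars1, Lars1, Sars1, Tars1 and Yars1, which charge transfer RNAs with amino acids, the glutamine transporter Slc1a5, the translation repressor Eif4ebp1 and the leucine sensor Sesn2. Sars1 read 8705, 5956 and 1135 in M2, M4 and M6, against 4789, 8421 and 5203 in M1, M3 and M5, and Eif4ebp1 read 4941, 2957 and 1004, against 1886, 3765 and 3128. The same held for 10 of 34 other cytosolic chaperones (29.4%) and 7 of 36 other ER folding factors (19.4%), and for 1 of 12 signalling genes (8.33%), 1 of 17 degradation genes (5.88%) and 0 of 10 other mitochondrial chaperones and proteases, near or below the share of all tested sets. Without M6, M1 was below all male cultures in 12 of the 27 amino acid stress genes, 13 of the 34 cytosolic chaperones and 11 of the 36 ER folding factors, against 18.8% of all tested sets. Without M1, M6 was below them in 15, 17 and 21 of these genes, against 24.5%. These counts were described after the values were seen, and the differences between lists were not tested.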

How the data were processed

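Total RNA from 6 cultures was read on Affymetrix MOE430A and MOE430B arrays (12 arrays). The authors deposited intensity values per probe set, made with MAS5 per the submitters' processing notes, with the version not stated. The values show a mean of about 1500 per array without the top and bottom 2%. The instrument records were read only for lot, station and scan day.

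Each chip was handled alone. The floor was the 30th percentile of the table, 247 for chip A and 359 for chip B. Lower values were set to the floor, log2 was taken, and sets were tested when at least 3 of 6 arrays exceeded the table's median (582 and 864). On chip A 11576 of 22626 sets passed, and chip B kept 11880 of its 22511. The stage difference was fitted in R 4.3.3 with limma 3.58.1 (lmFit, eBayes with an intensity trend, no covariate, two-sided), with Benjamini-Hochberg adjustment over all tested sets of a chip. SEs and intervals come from the fit, and the number of arrays limits the precision. On simulated data with 200 changed sets, a log2 shift of 1, 2 or 3 gave 0, 136 or 176 correct calls for chip A and 0, 82 or 135 for chip B.

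Gene names came from the platform annotation: 1 symbol for 20380 chip A and 14661 chip B sets, several for 691 and 245, none for 1555 and 7605. Sets with several symbols were not counted as members. Members, classes, lists and tests were chosen with earlier results of these data known. Values in all cultures are given for member sets with an unadjusted p under 0.05, with no overlap of stages, among the 8 largest differences, or brightest for 8 fixed genes; values of other sets, and the comparison by sex, were chosen after they were seen. From each further list the 2 genes of lowest p are named. Alternatives were other scalings, floors, filters, thresholds, sex or station as a block, no trend, array weights and leaving out each culture.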

Additional observations from a re-analysis of the deposited data

How the results depend on the processing

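No paired analysis was possible because the labels do not pair mature with precursor cultures. Scan day as a block was not run because each chip was scanned on 1 day. Over 16 alternative fits, 0 member sets were called except with the station as a block, where Pdia4 was called (1 set, log2 difference -1.56, adjusted p 0.0477); at an adjusted p under 0.1 it was also 1. The Pdia4 difference ran from -1.73 to -1.27 and that of the chip B Ddit3 set from 1.18 to 2.21, both with the same sign in all 16 alternatives. The Ddit3 difference was smallest without M3. The chip A count of changed sets over all genes, 61, was 1 with no filter on dim sets and 21 to 59 with 1 culture left out. The chip B count, 11, was 4 with no floor, 17 with a floor at the 50th percentile or sex as a block, 0 with no filter, 6 with a mean above the 60th percentile, 3 with no trend, 7 with array weights, 24 at an adjusted p under 0.1 and 3 to 11 with 1 culture left out. The cause of these shifts was not tested. With 1 culture left out, class medians ran from -0.07 to 0.29 (sensors and factors), -0.35 to -0.03 (ER chaperones), -0.25 to 0.00 (degradation), -0.38 to 0.74 (amino acid stress), -0.06 to 0.18 (cytosolic) and -0.69 to 0.03 (mitochondrial). Member sets lowest in both female cultures numbered 22, against 20 to 24 under other scalings, floors and filters and 26 to 35 with M6 or M1 left out, amino acid stress sets 7, against 7 and 8 to 9, and other amino acid stress genes 11, against 12 to 15 with M6 or M1 left out. Alternatives for the comparison by sex were chosen after seeing the data. With 3 cultures per stage, a log2 change of 1 was not recovered in simulated data, so changes of that size in a member could go uncalled.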

Other observations

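Some probe sets are on both chips, so that the same RNA was read with the same probes on 2 arrays. Canx, the membrane-bound lectin chaperone, is the member among them. Its set 1415692_s_at differed by 0.17 ± 0.22 (SE) between mature and precursor cultures on chip A and by -0.23 ± 0.26 on chip B. Over the 96 sets tested on both chips, the log2 difference between stages differed by a median of 0.24 between the chips and by at most 1.08, and 31 sets had opposite signs.

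Of the 27 members with 2 or more tested sets, 15 had all sets on the same side of 0 and 12 had sets on both sides. A set that the annotation shares between Phgdh and a predicted gene, 1456471_x_at, read 5373, 2946 and 744 in M2, M4 and M6, against 2648, 2965 and 4981 in M1, M3 and M5, with M6 lowest as in 3 of the 4 tested Phgdh sets.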
